A study of Rattus norvegicus with 288 samples.

Results

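Expression of 10 genes of fatty acid synthesis was followed in the liver, heart and bone marrow of rats given the mTOR inhibitor temsirolimus, the kinase inhibitors sunitinib or sorafenib, both kinds of agent, or the vehicles alone. The genes were Acly, Acaca, Fasn, Elovl6, Scd2, Fads2, Me1, Thrsp, Srebf1 and Pnpla3, which are 10 of the 14218 genes measured by a probe set with 1 gene symbol. They were selected on measured values: Pnpla3, Me1, Fads2 and Thrsp were low in liver 24 h after temsirolimus given without an oral drug, and Scd2 was low in bone marrow in the same comparison; the other genes belong to the same pathway. Those changes are therefore described below without a test. In each tissue a gene was represented by whichever of its probe sets was brightest on average there. All values are log2 signals of Affymetrix rat genome arrays after robust multi-array averaging (RMA), and a change is a difference of log2 signals, so that 1 unit is a doubling.

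The study held 96 male Sprague-Dawley rats aged 7 to 8 weeks, with 4 rats for each of 8 treatments at each of 3 times. Each rat received an intravenous bolus of Temsirolimus at 0.3 mg/kg or its vehicle (TEM_vehicle, which holds ethanol, propylene glycol, Tween and PEG400 in saline) and, 30 min later, an oral dose of sterile water, of the F68/PG/PEG400 vehicle (Pluronic F68, propylene glycol and PEG400), of Sunitinib at 5 mg/kg in water, or of Sorafenib at 25 mg/kg in F68/PG/PEG400. Bone marrow, heart and liver of the same rat were collected 1, 6 or 24 h after dosing, which gave 288 arrays, and no rat went undosed. Each agent was given at 1 dose, the rats carried no tumour, and food and water were freely available, so that no group is a model of treated cancer.

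In the liver, surplus carbohydrate is turned into fatty acids by a chain of enzymes. Acly splits cytosolic citrate to acetyl-CoA, Acaca makes malonyl-CoA from it in the rate-limiting step, Fasn builds palmitate, Elovl6 lengthens palmitate, and Scd2 and Fads2 introduce double bonds. Me1 supplies NADPH for the pathway, Thrsp is a small nuclear and cytosolic protein induced by thyroid hormone and carbohydrate, Srebf1 encodes the transcription factor SREBP1 that switches on most of these genes after insulin, and Pnpla3 is a lipid droplet protein of the patatin-like phospholipase family whose transcript follows SREBP1 activity and feeding. Insulin reaches SREBP1 partly through mTOR complex 1, the kinase complex that temsirolimus inhibits.

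Promoter sequences of 3 of the genes are shown as examples with and without the CCAAT box, to which factor NF-Y binds beside SREBP1 in many lipogenic promoters: Pnpla3 and Acly hold it and Fads2 does not. Each runs 5′ to 3′ over the 250 bases before the RefSeq start site in the rat build GRCr8, and capitals mark CCAAT or GGGCGG (the GC box) read on either strand.
Pnpla3, chr7:117173278-117173527, plus strand: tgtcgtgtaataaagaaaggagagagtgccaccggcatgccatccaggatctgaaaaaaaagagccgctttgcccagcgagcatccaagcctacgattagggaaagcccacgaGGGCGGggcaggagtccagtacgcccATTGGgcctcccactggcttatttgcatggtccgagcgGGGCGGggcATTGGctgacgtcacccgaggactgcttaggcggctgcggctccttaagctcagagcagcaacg
Acly, chr10:85963632-85963881, minus strand: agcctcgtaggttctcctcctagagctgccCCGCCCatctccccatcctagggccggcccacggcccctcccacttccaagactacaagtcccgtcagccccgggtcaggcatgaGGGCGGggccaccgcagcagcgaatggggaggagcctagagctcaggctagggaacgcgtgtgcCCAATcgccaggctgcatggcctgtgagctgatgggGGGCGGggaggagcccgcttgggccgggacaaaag
Fads2, chr1:216172034-216172283, minus strand: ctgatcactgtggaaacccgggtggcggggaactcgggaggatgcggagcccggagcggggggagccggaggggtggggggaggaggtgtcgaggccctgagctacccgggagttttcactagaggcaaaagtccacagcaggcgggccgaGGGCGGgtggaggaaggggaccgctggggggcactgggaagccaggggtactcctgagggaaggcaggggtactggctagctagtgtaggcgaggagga
Of the 10 genes, 7 had an entry in the table of promoters, in 8 windows because Srebf1 has more than 1 start, and Fasn, Acaca and Elovl6 had none. CCAAT lay in the windows of 5 of the 7 genes (Pnpla3, Acly, Scd2, Srebf1 and Thrsp), and in 34% of 33469 rat promoter windows of the same length. GGGCGG lay in those of 6 genes, all but Scd2, and in 30.5% of all windows. TCACNCCAC, a sterol regulatory element searched on both strands with N for any base, lay in none of the 7 and in 0.974% of all windows; it shares no position with the other motifs here. The CCAAT boxes of Pnpla3 lay at positions -111 to -107 and -64 to -60 on the opposite strand, counted from the start site, and that of Acly at -71 to -67 on the gene's own strand. A match of letters is a description of the window and not a measured binding site.

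The tissue labels were checked with 1 defining gene each. Albumin (Alb) had a log2 signal of 15.19 to 15.30 in the 96 livers, the cardiac myosin gene Myh6 14.29 to 14.90 in the hearts, and the neutrophil gene S100a8 14.29 to 14.60 in the bone marrows. Alb was also found in hearts, at 5.14 to 15.14, and the heart of rat 6M68 (Temsirolimus + Sorafenib, 1 h) reached the level of a liver. The study names the bone marrow array of rat 4M45 (Temsirolimus + F68/PG/PEG400, 6 h) and the liver array of rat 4M48 (Temsirolimus + F68/PG/PEG400, 24 h) as potential outliers, and the liver array of rat 7M78 (TEM_vehicle + Sunitinib, 24 h) had a compressed range of signals. These arrays stay in the values below unless it is said that they were left out.

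All members but Scd2 had their highest mean signal in liver. Over the 24 vehicle-dosed rats, liver did not overlap with heart or bone marrow for these genes except Me1, whose lowest liver (10.13) lay below its highest heart (10.30); of all genes 18.1% had a liver signal above both other tissues without overlap. Over these rats, which received TEM_vehicle and either oral vehicle, Pnpla3 had a log2 signal of 11.01 ± 1.42 (SD, n = 24) in liver, 6.50 ± 0.54 in heart and 4.15 ± 0.16 in bone marrow, read from the same probe set. Its SD in liver was the highest of the 10 genes there, with values from 7.74 to 12.96. Thrsp, at 14.24 ± 0.27 in liver, was at 5.84 ± 0.25 in heart and 6.05 ± 0.76 in bone marrow, and these last tissues overlapped. Scd2 had the opposite order, with 10.15 ± 0.32 in bone marrow, then 9.32 ± 0.26 for heart and 8.31 ± 0.25 for liver, and neighbours in that order overlapped.

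The liver levels of the other members in these 24 rats were 13.68 ± 0.35 for Acly, 11.90 ± 0.33 for Acaca, 12.26 ± 0.55 for Fasn, 10.32 ± 0.81 for Elovl6, 12.87 ± 0.26 for Fads2, 11.42 ± 0.50 for Me1 and 12.25 ± 0.47 for Srebf1. Since probe sets differ in response, these are not compared between genes. Between heart and bone marrow, Me1 was higher in heart (9.85 against 8.30) and Acly (9.66 against 11.02) and Elovl6 (6.53 against 7.79) were higher in bone marrow, each without overlap, whereas Fads2, Fasn, Acaca and Srebf1 overlapped. The share of all genes without overlap between heart and bone marrow was not counted, so this only describes the values. In whole tissue, fewer cells of a type and less RNA per cell cannot be told apart.

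The oral vehicle in liver at 6 h gave more calls of members than the other comparisons of treatments within a tissue, and it is put first because of that, a choice made after the values were seen. Pnpla3, Fasn, Acaca, Acly and Elovl6 rose in rats that received F68/PG/PEG400 compared with rats that received water (8 rats against 8, over both intravenous agents). In the limma fit over all genes, 31 of 14218 genes passed an adjusted p of 0.05 in this comparison, which is 0.218%, with 28 higher and 3 lower, against 5 of the 10 members. By p the 5 members stood between rank 5 and rank 10 of the 31, and Pnpla3 had the largest change of them by size. The median change of the 10 members was 0.75, and that of all genes was -0.000154.

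Acly, the source of the acetyl-CoA, had log2 signals of 13.37, 13.04, 12.86 and 13.31 in the 4 livers of TEM_vehicle + sterile water and 14.19, 13.94, 13.87 and 14.14 in those of TEM_vehicle + F68/PG/PEG400. After Temsirolimus the values were 13.42, 13.52, 13.24 and 13.18 with water and 13.99, 14.10, 13.88 and 14.04 with F68/PG/PEG400. Every liver with the F68 vehicle was above every liver with water. The change was 0.78 ± 0.13 (standard error; 1.71-fold; adjusted p = 0.00018 in limma).

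Acaca, the carboxylase, was at 11.91, 11.76, 11.50 and 11.69 in TEM_vehicle + sterile water and at 12.65, 12.50, 12.18 and 12.40 in TEM_vehicle + F68/PG/PEG400. With Temsirolimus it was at 11.73, 11.94, 11.72 and 11.21 with water and at 12.44, 12.50, 12.20 and 12.36 with F68/PG/PEG400. The groups again did not overlap. Acaca rose by 0.72 ± 0.13 (1.65-fold; limma adjusted p = 0.000492).

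Fasn, which makes palmitate, was at 11.67, 11.43, 11.62 and 11.73 in TEM_vehicle + sterile water and at 13.34, 13.19, 12.65 and 12.90 in TEM_vehicle + F68/PG/PEG400. With Temsirolimus it was at 12.16, 12.02, 11.70 and 11.29 with water and at 13.14, 12.95, 12.39 and 13.16 with F68/PG/PEG400. There was no overlap, and the nearest livers were 12.16 and 12.39. Fasn rose by 1.26 ± 0.20 (2.40-fold; limma adjusted p = 7.37e-05).

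Elovl6, the elongase, was at 9.86, 8.59, 8.80 and 8.68 in TEM_vehicle + sterile water and at 11.37, 11.36, 10.78 and 10.98 in TEM_vehicle + F68/PG/PEG400. With Temsirolimus it was at 9.52, 10.11, 9.74 and 9.14 with water and at 10.77, 10.61, 10.43 and 10.39 with F68/PG/PEG400. The gap between the groups was narrower after Temsirolimus but was open in both. Elovl6 rose by 1.53 ± 0.27 (2.89-fold; limma adjusted p = 0.000459).

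Pnpla3, the lipid droplet protein, was at 11.01, 8.61, 7.74 and 8.70 in TEM_vehicle + sterile water and at 12.96, 12.89, 10.91 and 12.35 in TEM_vehicle + F68/PG/PEG400. With Temsirolimus it was at 8.36, 9.87, 8.38 and 7.90 with water and at 11.13, 11.96, 10.75 and 11.52 with F68/PG/PEG400. The groups overlapped through 1 liver, that of rat 1M10 with water, which lay at 11.01. Pnpla3 rose by 2.99 ± 0.56 (7.93-fold; limma adjusted p = 0.00123).

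**Figure D1:**
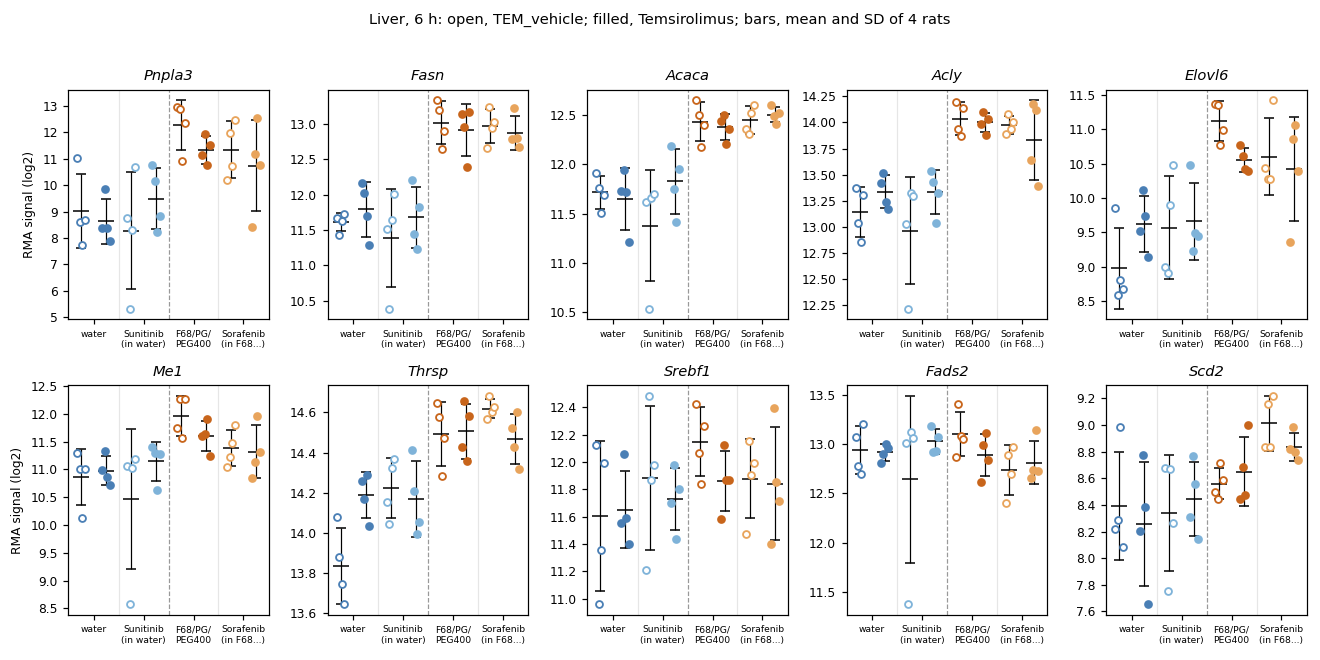
Log2 RMA signal of the 10 genes in the livers collected at 6 h, 1 panel per gene, with 1 point per rat for each of the 8 treatments (open, TEM_vehicle; filled, Temsirolimus) and a bar for the mean and SD of 4 rats. Fasn lay between 12.39 and 13.34 in all 16 livers dosed with F68/PG/PEG400, with or without sorafenib, and between 10.39 and 12.21 in the 16 dosed with water, with or without sunitinib.

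The other 5 members did not pass in this comparison. Me1, the NADPH source, had a change of 0.86 ± 0.23 (limma adjusted p = 0.0986) with a 95% interval of 0.41 to 1.32, and Thrsp one of 0.49 ± 0.15 (adjusted p = 0.209) with an interval of 0.20 to 0.78. Srebf1 had 0.38 ± 0.17 and Scd2 0.28 ± 0.17, both with an adjusted p of 1. Fads2 had 0.07 ± 0.15 with an interval of -0.22 to 0.36. Thrsp was at 14.08, 13.88, 13.74 and 13.64 in TEM_vehicle + sterile water and 14.64, 14.58, 14.28 and 14.47 in TEM_vehicle + F68/PG/PEG400, and at 14.26, 14.17, 14.29 and 14.03 against 14.43, 14.66, 14.36 and 14.58 after Temsirolimus, which left an overlap of 14.28 with 14.29. When the 24 h array of rat 4M48 was left out, which has the lowest Thrsp of its group and widens the spread, Thrsp passed with the same change (adjusted p = 0.000751). When the mean of a gene's probe sets was taken, both Me1 (1.16, adjusted p = 0.00527) and Thrsp (0.61, adjusted p = 0.00527) passed. The desaturases Fads2 and Scd2 and the regulator Srebf1 passed in neither.

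Other probe sets of the same genes changed in the same direction, but not always by the same size. The second-highest probe set of Pnpla3 had a change of 2.75 ± 0.48 and the lowest one 1.60 ± 0.41, the other probe set of Fasn had 1.74 ± 0.27, that of Acaca 0.70 ± 0.21, and that of Elovl6 1.59 ± 0.35. Me1 had 1.47 ± 0.28 on its other probe set and Thrsp 0.54 ± 0.10 and 0.81 ± 0.16 on its other ones. These probe sets were not part of the test over all genes.

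Rats dosed on the same day cannot be named from the labels, but within each group the sample names fall into an earlier and a later pair, which entered the fit as an array set. Within the sets the change of Pnpla3 was 3.59 and 2.38, of Fasn 1.34 and 1.18, of Acaca 0.79 and 0.65, of Acly 0.84 and 0.71, and of Elovl6 1.77 and 1.29. All 5 genes passed in each of 16 fits that left out 1 of the rats, with Pnpla3 between 2.79 and 3.31 and Fasn between 1.18 and 1.34.

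With 4 rats against 4 after TEM_vehicle alone, 15 genes passed (0.106%), among them Fasn at 1.40 ± 0.29 (limma adjusted p = 0.00951), Acly at 0.89 ± 0.19 (adjusted p = 0.0107) and Elovl6 at 2.14 ± 0.38 (adjusted p = 0.00119). Pnpla3 had 3.26 ± 0.79 (adjusted p = 0.0786) and Acaca 0.72 (adjusted p = 0.118) there. After Temsirolimus, 2 genes passed (0.0141%) and no member did, with values of 2.71 for Pnpla3, 1.12 for Fasn, 0.73 for Acaca, 0.66 for Acly and 0.92 for Elovl6 (adjusted p between 0.313 and 1). Fasn, Acaca, Acly and Elovl6 did not overlap between vehicles in either set of 8 rats, and Pnpla3 overlapped after TEM_vehicle (11.01 with water, 10.91 with F68/PG/PEG400) and not after Temsirolimus. The share of all genes without overlap was not counted, so this only describes the values. The difference between the vehicle's change after TEM_vehicle and after Temsirolimus passed for no gene in limma (0% of 14218, with 626 genes at an unadjusted p under 0.05). It was 1.22 ± 0.54 for Elovl6 and 0.55 ± 1.11 for Pnpla3.

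Members passed for the oral vehicle in liver at 6 h and at no other time. At 1 and 24 h no gene of 14218 passed in liver (0%, with 411 and 556 genes at an unadjusted p under 0.05 in limma). Pnpla3 had changes of -0.08 ± 0.56 at 1 h and 0.34 ± 0.56 at 24 h, Fasn 0.28 ± 0.20 and 0.00 ± 0.20, and Thrsp 0.16 ± 0.15 and -0.53 ± 0.15 (adjusted p = 0.512). The change at 6 h minus the mean of those at 1 and 24 h was tested directly and passed for 11 genes (0.0774%). Fasn had 1.12 ± 0.25 (adjusted p = 0.0303), Acaca 0.71 ± 0.16 (adjusted p = 0.0303), Acly 0.74 ± 0.16 (adjusted p = 0.0276) and Elovl6 1.63 ± 0.33 (adjusted p = 0.0137), and Pnpla3 had 2.86 ± 0.68 (adjusted p = 0.0801) and did not pass. Rats of different times are different animals with arrays of their own, so time, rat and array run cannot be told apart.

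**Figure D2:**
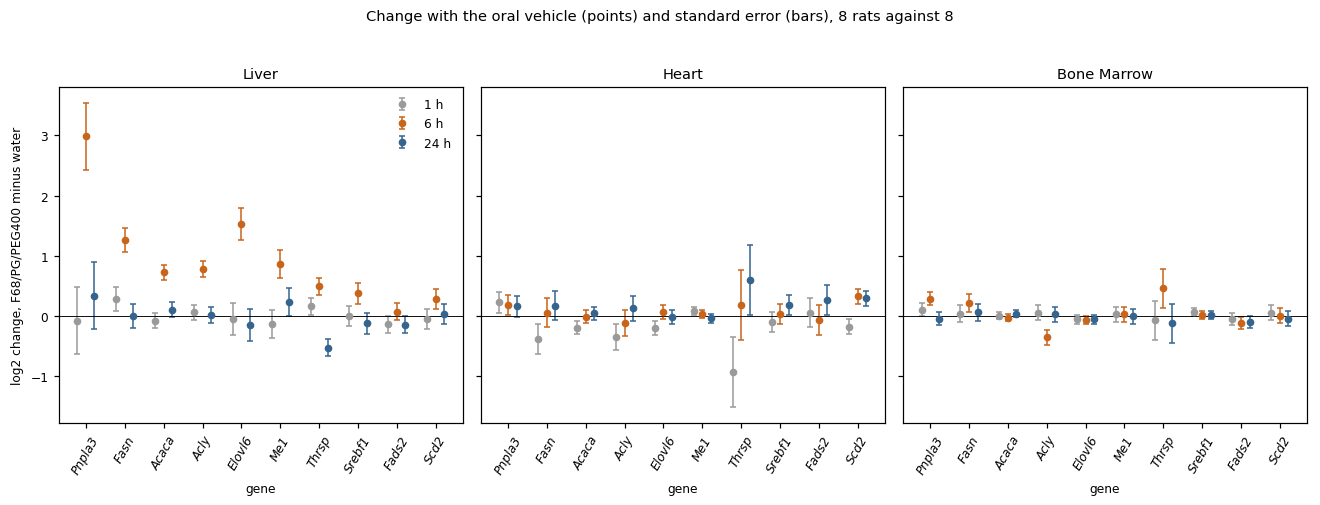
Change of log2 signal with the oral vehicle F68/PG/PEG400 against sterile water (mean and standard error, 8 rats against 8) for each of the 10 genes at 1, 6 and 24 h in liver, heart and bone marrow. In liver at 6 h Pnpla3 lies at 2.99, Elovl6 at 1.53 and Fasn at 1.26, while Fads2 lies at 0.07.

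The livers of rats given an oral drug are different animals and hold the same contrast of vehicles, since sorafenib was given in F68/PG/PEG400 and sunitinib in water. Drug and vehicle cannot be told apart in them. At 6 h, sorafenib minus sunitinib (8 rats against 8) passed for 84 genes (0.591%), among them 4 members, which all rose. Fasn had 1.38 ± 0.20 (limma adjusted p = 5.25e-06), Acaca 0.87 ± 0.13 (adjusted p = 5.25e-06), Acly 0.75 ± 0.13 (adjusted p = 0.000211) and Pnpla3 2.15 ± 0.56 (adjusted p = 0.0428). Elovl6 had 0.89 ± 0.27 (adjusted p = 0.124) and Fads2 -0.06 ± 0.15.

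In single livers at 6 h, Fasn was at 11.51, 10.39, 11.64 and 12.01 in TEM_vehicle + Sunitinib and 12.65, 13.24, 12.94 and 13.02 in TEM_vehicle + Sorafenib. After Temsirolimus it was at 12.21, 11.45, 11.23 and 11.82 with Sunitinib and 12.78, 13.22, 12.80 and 12.67 with Sorafenib. Neither Fasn nor Acaca overlapped between the drugs, and the share of all genes without overlap was not counted. Pnpla3 was at 8.77, 5.32, 8.31 and 10.71 in TEM_vehicle + Sunitinib and 10.18, 12.00, 10.71 and 12.48 in TEM_vehicle + Sorafenib, and at 10.76, 10.16, 8.22 and 8.83 against 8.42, 11.20, 12.56 and 10.77 after Temsirolimus. It overlapped widely, and the lowest liver, that of rat 7M76 at 5.32, also had the lowest Me1 (8.57), Fads2 (11.37), Acaca (10.54), Acly (12.22) and Fasn (10.39) of the 16 water-dosed livers.

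Within the array sets sorafenib minus sunitinib was 1.58 and 1.18 for Fasn, 0.91 and 0.83 for Acaca, 0.89 and 0.62 for Acly, and 1.69 and 2.61 for Pnpla3. At 1 and 24 h 176 of 28436 tests over all genes passed (0.619%) and no member did; at 24 h Pnpla3 had -0.91, Fasn -0.50 and Acly -0.37. The change at 6 h minus the mean of the other times passed for 15 genes (0.106%), among them Fasn at 1.39 (limma adjusted p = 0.00104), Acaca at 0.88 (adjusted p = 0.00104) and Acly at 0.86 (adjusted p = 0.00199).

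Taking all 32 livers of 6 h by oral vehicle, Fasn had a lowest, median and highest log2 signal of 12.39, 12.95 and 13.34 with F68/PG/PEG400 and of 10.39, 11.66 and 12.21 with water, so that 16 of 16 livers with F68/PG/PEG400 were above all with water. For Acaca the values were 12.18, 12.47 and 12.65 against 10.54, 11.71 and 12.19, and for Acly 13.39, 13.99 and 14.19 against 12.22, 13.30 and 13.54, with 15 of 16 above all for each. Thrsp had 13 of 16 above all (14.28, 14.57 and 14.68 against 13.64, 14.12 and 14.41). Pnpla3 and Me1 had 10 of 16 each, Elovl6 9, Scd2 3, Fads2 1 and Srebf1 0. At 1 h Thrsp already had 9 of 16 above all (median 14.43 against 14.20) and Fasn 7 (12.57 against 12.12). The other members had 3 or fewer at 1 h, and none had more than 2 at 24 h. The shares of all genes were not counted.

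Against their own vehicles the oral drugs gave no such change. For sunitinib minus water after TEM_vehicle, no member passed at any time in liver (30 tests, 2 at an unadjusted p under 0.05 in limma; 3.37% of all tests passed), and for sorafenib minus F68/PG/PEG400 none did either (30 tests, 0 at an unadjusted p under 0.05; 0.0938%). At 6 h Fasn had -0.23 ± 0.29 with sunitinib and -0.05 ± 0.29 with sorafenib, and Pnpla3 had -0.74 ± 0.79 and -0.93 ± 0.79. With 4 rats against 4 the 95% interval for Pnpla3 ran from -2.30 to 0.83 for sunitinib and from -2.50 to 0.63 for sorafenib, and that for Fasn from -0.80 to 0.34 and from -0.62 to 0.52. The lowest adjusted p of a member was that of Scd2 at 24 h after sunitinib (-0.63 ± 0.24, limma adjusted p = 0.0612), followed by Srebf1 (-0.61 ± 0.24, adjusted p = 0.07). At 24 h 9.99% of all genes passed after sunitinib alone in liver. Its treated group holds a liver with Scd2 at 6.06 and includes the compressed array of rat 7M78. The count of members that passed rose to 1 without rat 7M77 and to 2 without rat 7M83 or 7M84. These comparisons share their vehicle rats with those of the oral vehicle and of temsirolimus alone.

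Beside the members, the lists of related genes had few calls in liver at 6 h. Of 4 measured genes of NADPH supply, Pgd, an enzyme of the pentose phosphate pathway, rose with the oral vehicle (0.63 ± 0.12, limma adjusted p = 0.00223), and of 4 genes of glucose use Pklr, the liver pyruvate kinase, rose (0.73 ± 0.14, adjusted p = 0.00323). None passed among 14 other genes of fatty acid synthesis and desaturation, 10 of triglyceride synthesis, 14 regulators of lipogenesis, 12 of cholesterol synthesis, 10 of lipid droplets and lipases, and 6 of fasting. Their median changes were 0.07, 0.07, -0.0016, -0.17, 0.07 and -0.30 in that order, against -0.000154 over all genes.

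Among all 31 genes that passed, the smallest adjusted p was that of Slc2a5, the fructose transporter (1.67 ± 0.20, adjusted p = 6.76e-08), a gene that is no member. Gpi (0.65), Gpd1 (0.50), Tkfc (0.49) and Pdhb (0.60), enzymes of sugar and pyruvate metabolism, also rose, and Hamp (-1.80), Lcn2 (-1.16) and Amacr (-0.46) were the 3 that fell. These were named after their values were seen. For sorafenib minus sunitinib at 6 h, Pgd (0.49, adjusted p = 0.0341), Pklr (0.79, adjusted p = 0.000505) and the phosphatidate phosphatase Lpin1 (1.32 ± 0.23, adjusted p = 0.00029) were the called genes of these lists. The mean level of 15 hepatocyte markers over the 8 treatments at 6 h was 14.41 to 14.46, that of the adipocyte markers 7.17 to 7.31 and that of the macrophage markers 10.05 to 10.53.

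Over both intravenous agents, no member passed for the oral vehicle in heart (30 tests, 2 at an unadjusted p under 0.05 in limma; 0% of all tests passed) or bone marrow (30 tests, 2 at an unadjusted p under 0.05; 0.0586%). With 4 rats against 4 after temsirolimus, Pnpla3 (0.41, adjusted p = 0.0486), Fads2 (-0.43, adjusted p = 0.0313) and Acly (-0.44, adjusted p = 0.0499) passed in bone marrow at 6 h beside 22.9% of all genes; this comparison holds the array of rat 4M45, and without it no gene passed (0%, with 476 at an unadjusted p under 0.05) and these members had -0.05, -0.17 and -0.09. At 6 h over both agents Fasn had 0.05 ± 0.24 in heart and 0.21 ± 0.14 in bone marrow, and Acly -0.12 ± 0.21 and -0.36 ± 0.12. The difference between tissues was tested within each rat. For liver minus heart 8 genes passed (0.0563%), of which 3 were members: Pnpla3 at 2.57 ± 0.52 (limma adjusted p = 0.00967), Me1 at 1.44 ± 0.26 (adjusted p = 0.00193) and Elovl6 at 1.46 ± 0.29 (adjusted p = 0.00762). For Fasn (1.21, adjusted p = 0.154), Acaca (0.73, adjusted p = 0.0587) and Acly (0.89, adjusted p = 0.158) the difference from heart did not pass.

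For liver minus bone marrow 47 genes passed (0.331%), of which 5 were members, namely Pnpla3 (2.47, limma adjusted p = 0.00421), Fasn (1.05, adjusted p = 0.0412), Acaca (0.75, adjusted p = 0.000165), Acly (1.13, adjusted p = 4.91e-06) and Elovl6 (1.60, adjusted p = 0.000465). For sorafenib minus sunitinib at 6 h, Fasn, Acaca and Acly passed against heart (1.50, 0.89 and 1.00; 38 genes, 0.267%) and against bone marrow (1.49, 0.81 and 0.84; 32 genes, 0.225%). These differences use 1 probe set per gene for both tissues; for Pnpla3, and for Me1 against heart, it was another one than that used for liver alone, with changes in liver of 2.75 and 1.47.

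Temsirolimus given without an oral drug was the comparison by which the genes had been chosen, and at 24 h in liver it is described only. In this comparison 439 genes passed (3.09%). Pnpla3 was at 11.69, 9.76, 10.05 and 12.67 in TEM_vehicle + sterile water and at 9.33, 8.53, 8.38 and 7.74 in Temsirolimus + sterile water, and at 10.89, 11.41, 10.43 and 10.71 against 10.75, 9.37, 7.83 and 9.45 with F68/PG/PEG400. The change of Pnpla3 was -2.55 with water and -1.51 with F68/PG/PEG400. Me1 had -1.08 and -0.99 and Fads2 -0.50 and -0.78 in the same order, so each was low with both oral vehicles.

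Thrsp had a change of -0.07 with water and -0.91 with F68/PG/PEG400. The 4 livers of Temsirolimus + F68/PG/PEG400 were at 14.26, 13.65, 13.62 and 11.44, the last being the array of rat 4M48, against 14.40, 14.12, 14.32 and 13.77 in TEM_vehicle + F68/PG/PEG400. Over both vehicles the change of Thrsp was -0.49 ± 0.15 with that array and -0.20 ± 0.09 without it, while Pnpla3 had -2.03 ± 0.56 and -2.09 ± 0.58, Me1 -1.04 ± 0.23 and -0.95 ± 0.24, and Fads2 -0.64 ± 0.15 and -0.59 ± 0.15. Of the members that the choice did not rest on by size, Fasn had -0.13 ± 0.20 and Acaca 0.10 ± 0.13 over both vehicles, Acly -0.37 ± 0.13, Elovl6 -0.49 ± 0.27, Srebf1 -0.30 ± 0.17 and Scd2 -0.41 ± 0.17. On the probe sets used, Fasn and Acaca lay near 0 in this comparison, in which Pnpla3 and Me1 had been chosen as low. Other probe sets gave -0.32 ± 0.27 for Fasn, -0.30 ± 0.21 for Acaca, -0.53 ± 0.35 for Elovl6 and -0.66 ± 0.19 for Srebf1. The next probe set of Scd2 gave -0.23 ± 0.09. At 1 and 6 h no gene passed in liver (0%, with 397 and 532 at an unadjusted p under 0.05 in limma), and none of the 20 tests of members had an unadjusted p under 0.05. At 6 h Pnpla3 had -0.66 ± 0.56 and Fasn 0.04 ± 0.20.

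**Figure D3:**
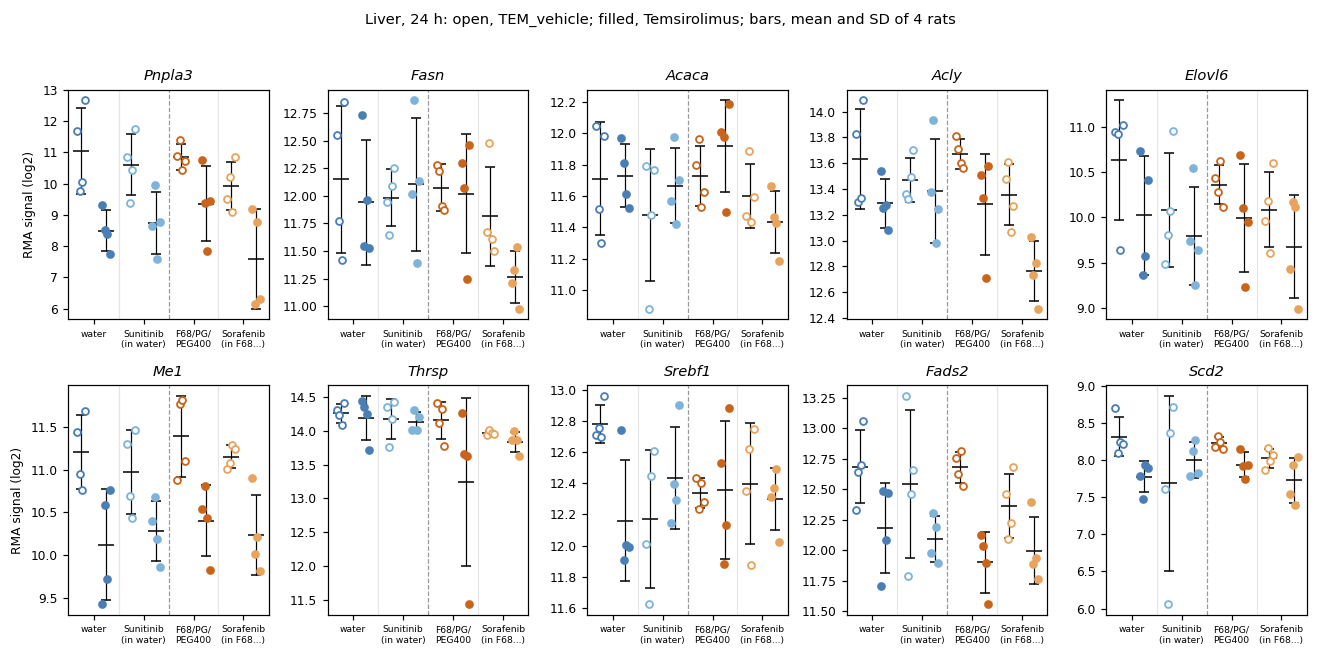
Log2 RMA signal of the 10 genes in the livers collected at 24 h, 1 panel per gene, with 1 point per rat for each of the 8 treatments (open, TEM_vehicle; filled, Temsirolimus) and a bar for the mean and SD of 4 rats. Pnpla3 had a median of 8.70 in the 16 livers after Temsirolimus and 10.58 in the 16 after TEM_vehicle, which include the livers by which it was chosen.

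The rats given sunitinib or sorafenib after temsirolimus are other animals, and 9 of the members could be tested in them, while Pnpla3 was already known to be low there and is described. In liver at 24 h, 1117 genes passed for temsirolimus with an oral drug (7.86%) and 1 of the 9 members did. That count is near the share over all genes and is not read as a trait of the members. Me1 fell by 0.80 on the log2 scale, with a standard error of 0.23 (limma adjusted p = 0.022). It was at 11.30, 10.70, 10.43 and 11.46 in TEM_vehicle + Sunitinib and 10.40, 10.69, 10.19 and 9.86 in Temsirolimus + Sunitinib, and at 11.01, 11.07, 11.28 and 11.24 in TEM_vehicle + Sorafenib and 10.90, 10.01, 10.21 and 9.82 in Temsirolimus + Sorafenib. The sunitinib groups overlapped and the sorafenib groups did not.

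With sunitinib only the change of Me1 was -0.69 (adjusted p = 0.163) and with sorafenib only -0.91 (adjusted p = 0.218), and in the array sets it was -0.52 and -1.09. Over 16 fits that each left out 1 rat it ran from -0.91 to -0.71 and no longer passed without rat 8M96 or without rat 6M72. Of the other members, Fads2 had -0.41 ± 0.15 (adjusted p = 0.0641), Acly -0.34 ± 0.13 (adjusted p = 0.0848), Elovl6 -0.35 (adjusted p = 0.39), Fasn -0.22, Thrsp -0.09, Srebf1 0.08, Scd2 0.01 and Acaca 0.01. In the array sets Scd2 had 0.42 and -0.40 and Elovl6 0.11 and -0.80, so their averages join opposite signs. Thrsp and Acaca also changed sign between the sets, while Fads2, Acly, Fasn and Srebf1 did not. When the array of rat 7M78 was left out Fads2 passed too (-0.55, limma adjusted p = 0.0141). The change at 24 h minus that at 6 h passed for 28 genes (0.197%) and none of the 9 members, with -1.11 ± 0.32 for Me1 (adjusted p = 0.128).

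Pnpla3 was at 10.85, 9.39, 10.45 and 11.74 in TEM_vehicle + Sunitinib, 8.64, 9.97, 7.57 and 8.77 in Temsirolimus + Sunitinib, 9.51, 10.21, 9.11 and 10.85 in TEM_vehicle + Sorafenib, and 9.17, 6.15, 8.77 and 6.30 in Temsirolimus + Sorafenib. The difference of -2.10 ± 0.56 comprised -1.51 and -2.68 in the array sets. The 2 lowest livers of the whole set at 24 h were in Temsirolimus + Sorafenib. Over all 32 livers at 24 h, 10 of 16 after Temsirolimus had less Pnpla3 than every liver after TEM_vehicle, as had 9 for Me1, 6 for Acly, 5 each for Thrsp, Fasn and Elovl6, 3 for Fads2 and 0 for Acaca, Srebf1 and Scd2. These livers include those without an oral drug, by which Pnpla3, Me1, Fads2 and Thrsp were chosen. The counts are in part set by that choice, and the share of all genes was not counted.

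Genes of the related lists that passed in liver for temsirolimus with an oral drug at 24 h ran in both directions. Txnip, which restrains glucose uptake (0.44, limma adjusted p = 0.00273), Agpat2 of triglyceride synthesis (0.30, adjusted p = 0.0485), Mbtps1, the protease that activates SREBP (0.24, adjusted p = 0.0274), and the acyl-CoA synthetase Acsl1 (0.13, adjusted p = 0.0451) rose. Acsl5, another acyl-CoA synthetase (-0.42, adjusted p = 0.0056), and the droplet protein Plin3 (-0.58, adjusted p = 0.0107) fell. That was 1 up and 1 down of 14 for other fatty acid synthesis, 1 up of 10 for triglyceride synthesis, 1 up of 14 for regulators, 1 up of 4 for glucose use and 1 down of 10 for lipid droplets; none passed of 4 for NADPH supply, 12 for cholesterol synthesis and 6 for fasting. Over all genes 7.86% passed in this comparison and the median was 0.027. So few calls beside that share are not read as a trait of these lists. Among 5 adipocyte markers Cidec, also a droplet gene of liver, rose (0.39, adjusted p = 0.0315), and none of 15 hepatocyte markers passed.

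At 1 and 6 h none of the 20 tests of members passed for temsirolimus with an oral drug in liver (0.00352% of all tests passed). No interaction of temsirolimus and an oral drug passed for any gene at 1 and 6 h in liver (0%) or at any time in bone marrow (0%) or heart (0%), with 0 of 20, 2 of 29 and 5 of 30 tests of members at an unadjusted p under 0.05 in limma. Within a rat, liver minus heart passed at 24 h for 133 genes (0.935%) and liver minus bone marrow for 751 (5.28%) for temsirolimus with an oral drug, and none of the 9 members tested was among them.

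In heart, Scd2 was the 1 member to pass with both oral vehicles or both oral drugs averaged, or for a drug against its own vehicle. At 24 h it fell by 0.50 on the log2 scale, with a standard error of 0.12, after temsirolimus alone (limma adjusted p = 0.047; 45 genes passed, 0.317%) and fell by 0.58, with a standard error of 0.18, after sunitinib alone (adjusted p = 0.0467; 509 genes passed, 3.58%). The hearts of TEM_vehicle + sterile water, which are controls in both comparisons, were at 9.52, 9.46, 9.59 and 9.44. Temsirolimus + sterile water had 8.92, 8.94, 8.60 and 8.30 and TEM_vehicle + Sunitinib 9.33, 9.35, 8.96 and 8.05, all below those controls. TEM_vehicle + F68/PG/PEG400 had 9.74, 9.33, 9.47 and 9.39 and Temsirolimus + F68/PG/PEG400 9.49, 9.16, 9.07 and 9.45, which overlapped.

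These calls of Scd2 lay close to the threshold. With water only the change after temsirolimus was -0.81 (adjusted p = 0.0157) and with F68/PG/PEG400 only -0.19 (adjusted p = 0.849). Leaving out 1 rat ended the call in 13 of 16 fits for temsirolimus (-0.55 to -0.42), all but those without rat 2M18, 3M36 or 4M41, and in 5 of 8 for sunitinib (-0.73 to -0.29), those without rat 1M5, 1M11, 1M12, 7M77 or 7M83. The next probe set of Scd2, with a mean signal of 6.48 in heart, had -0.10 after temsirolimus and 0.41 after sunitinib. The array sets gave -0.58 and -0.42 for temsirolimus and -0.33 and -0.82 for sunitinib. Of the related lists, Txnip rose after temsirolimus alone (0.63, adjusted p = 0.00685), and the acyl-CoA synthetase Acsl3 (-0.37, adjusted p = 0.035) and the protease Mbtps2 (-0.38, adjusted p = 0.0236) fell after sunitinib.

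No member passed at 1 and 6 h in heart after temsirolimus alone (0.0985% of all tests passed) or sunitinib alone (1.23%), nor at any time after sorafenib alone (30 tests, 1 at an unadjusted p under 0.05 in limma; 1.72%) or for temsirolimus with an oral drug (30 tests, 6 at an unadjusted p under 0.05; 0.256%). The highest of these values belonged to Thrsp, at 6 h, with 1.38 for temsirolimus alone (limma adjusted p = 0.241) and 1.32 for temsirolimus with an oral drug (adjusted p = 0.226), each ± 0.59. For temsirolimus with sorafenib only, Acaca passed at 1 h (0.51, limma adjusted p = 0.0464), beside 3.64% of all genes. That comparison holds the heart of rat 6M68, whose Acaca (10.51) was the highest of the 96 hearts. The mean level of 15 hepatocyte markers in the 96 hearts ran from 5.58 to 13.97 with a median of 6.04. It was above 7 in 24 hearts, 17 of them after temsirolimus.

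Across the 96 hearts Thrsp had a Pearson correlation of 0.82 with the hepatocyte level and 0.78 without rat 6M68, Fads2 0.74 and 0.73, Srebf1 0.63 and 0.59, Acly 0.60 and 0.49, Fasn 0.57 and 0.46, and Acaca 0.48 and 0.30. Pnpla3 (0.21 and 0.005), Elovl6 (0.17 and -0.05), Me1 (-0.06) and Scd2 (-0.15 and -0.05) had less. The heart of rat 6M68 had Thrsp at 13.54, Fasn at 12.35 and Acly at 12.77. These correlations are descriptions over arrays that share treatments. A Thrsp signal above 8 was found in 15 hearts, 12 of which had a hepatocyte level above 7. The other 3, of rats 3M26, 3M25 and 7M73, had Thrsp at 10.39, 9.79 and 8.73 with hepatocyte levels of 5.74 to 5.80, and their adipocyte levels were 6.96, 7.01 and 6.18. With the adipocyte level Fasn correlated at 0.64, Thrsp at 0.58 and Elovl6 at 0.52. For Scd2 at 24 h the groups' hepatocyte levels were 6.32 ± 0.83 in TEM_vehicle + sterile water, 5.99 ± 0.17 in Temsirolimus + sterile water and 7.10 ± 1.33 in TEM_vehicle + Sunitinib (SD, n = 4). With the hepatocyte level as a covariate, Scd2 passed after temsirolimus alone (-0.48, limma adjusted p = 0.0482) and sunitinib alone (-0.55, adjusted p = 0.0491). With the adipocyte level instead, it passed after sunitinib (-0.60, adjusted p = 0.0277) and not after temsirolimus. The part of other cell types was not tested.

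**Figure D4:**
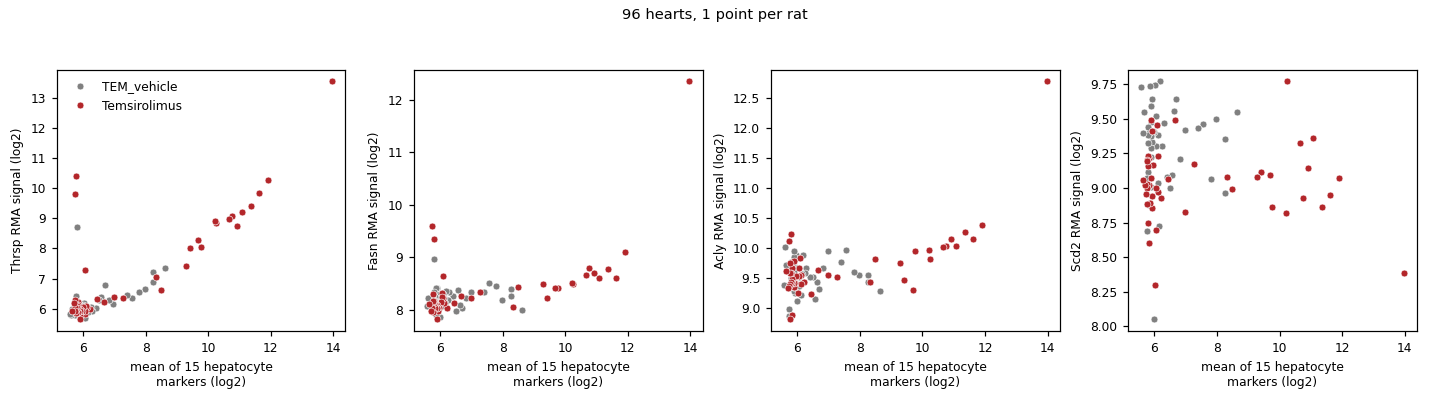
Log2 RMA signal of Thrsp, Fasn, Acly and Scd2 in the 96 hearts against the mean log2 signal of 15 hepatocyte markers in the same array, coloured by intravenous agent. Thrsp rises with the hepatocyte level (r = 0.82), Scd2 does not (r = -0.15), and the heart of rat 6M68 stands at the far right.

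In bone marrow no member passed in the treatment comparisons with both oral vehicles or both oral drugs averaged, or for a drug against its own vehicle. Temsirolimus alone at 24 h passed for 50 genes (0.352%) and at 1 and 6 h for none (0%); 6 of its 29 tests of members had an unadjusted p under 0.05 in limma. The other counts were 6 of 30 for temsirolimus with an oral drug (0.244% of all tests passed), 3 of 30 for sunitinib alone (0.00234%) and 2 of 30 for sorafenib alone (1.24%). Scd2 after temsirolimus alone at 24 h, by which it was chosen, was at 10.38, 10.69, 10.38 and 10.56 in TEM_vehicle + sterile water and 9.74, 9.38, 10.17 and 9.87 in Temsirolimus + sterile water. With F68/PG/PEG400 it was at 10.20, 10.06, 10.82 and 10.44 against 9.94, 9.17, 9.92 and 10.26. The change was -0.64 ± 0.12, and the groups overlapped with F68/PG/PEG400 only.

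With F68/PG/PEG400 only, which leaves 4 rats against 4 and holds the array of rat 4M45, temsirolimus at 6 h passed for 17.9% of all genes, among them Fads2 (-0.44, limma adjusted p = 0.0316), Srebf1 (-0.31, adjusted p = 0.0248) and Scd2 (-0.65, adjusted p = 0.0198). Without that array no gene passed (0%, with 808 at an unadjusted p under 0.05) and these members had -0.18, -0.19 and -0.35.

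Leaving out the array of rat 4M45, which stood apart, brought members past the threshold. Temsirolimus alone at 24 h then passed for 280 genes (1.97%), with Me1 at -0.41 (limma adjusted p = 0.0398) and Srebf1 at -0.22 (adjusted p = 0.048). Temsirolimus with an oral drug at 24 h passed for 268 genes (1.88%), with Fasn at -0.37 (adjusted p = 0.00811), Acaca at -0.19 (adjusted p = 0.0491) and Scd2 at -0.42 (adjusted p = 0.0266). Sunitinib alone at 24 h passed for 7 genes (0.0492%), with Elovl6 at -0.45 (adjusted p = 0.0396). The array itself is from 6 h and enters none of these 24 h comparisons except through the shared estimate of spread.

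Time was compared over the rats given TEM_vehicle and an oral vehicle (8 rats at each time). In liver 695 genes passed the F test over 1, 6 and 24 h (4.89%) and Srebf1 was the 1 member among them (F = 8.00, limma adjusted p = 0.023). Srebf1 had a lowest and highest log2 signal of 10.96 and 12.43 at 6 h and of 12.24 and 12.96 at 24 h, so the times overlapped. Its change from 6 to 24 h was 0.68 ± 0.17 (adjusted p = 0.00811; 675 genes passed, 4.75%), with 0.88 and 0.48 in the array sets. The F test no longer passed without rat 2M21, 1M4 or 1M3, with F between 5.34 and 9.61 over the rats left out. In heart 342 genes passed (2.41%) and no member, with 1 of 10 members at an unadjusted p under 0.05 in the F test. In bone marrow 40 genes passed (0.281%) and none of the members other than Scd2. Without rat 4M45 the bone marrow count was 172 genes (1.21%), among them Me1 (F = 10.3, adjusted p = 0.0204) and Elovl6 (F = 9.39, adjusted p = 0.0286). The 24 h vehicle rats are also the controls of temsirolimus alone, by which the members were chosen. Pnpla3, Me1, Fads2 and Thrsp were chosen against their livers, so no result over time in liver is read from these members. The call of Srebf1 uses the same livers and is not independent of the choice. Scd2 was chosen against their bone marrows, so its value (24 minus 6 h, 0.54) is given without a test.

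Over single livers each other member had a positive correlation with Pnpla3, but not all members varied together. Over the 96 livers the gene with the highest Pearson correlation with Pnpla3, of 14217 others, was Acly (0.876), and its correlation was 0.80 once group means were removed. Me1 was at rank 3 (0.793), Fasn at rank 6 (0.752), Elovl6 at rank 7 (0.734), Acaca at rank 16 (0.628) and Fads2 at rank 29 (0.576). Thrsp was at rank 127 (0.447), Scd2 at rank 405 (0.350) and Srebf1 at rank 529 (0.327). The 96 livers include those by which Pnpla3, Me1, Fads2 and Thrsp were chosen as low after temsirolimus. The ranks of Me1, Fads2 and Thrsp are therefore in part set by that choice. With group means removed the correlations with Pnpla3 were 0.63 for Me1, 0.69 for Fasn, 0.70 for Elovl6, 0.62 for Acaca, 0.54 for Fads2, 0.49 for Srebf1, 0.26 for Thrsp and 0.25 for Scd2. Fasn correlated with Acly at 0.902 and with Acaca at 0.837. Srebf1 had 0.008 with Me1, -0.002 with Thrsp, 0.02 with Acaca, -0.09 with Scd2 and -0.19 with Fads2. With Fasn, Acly and Elovl6 it had 0.25, 0.27 and 0.49.

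Among genes that are no members, those most like Pnpla3 were Pgd (0.828), Fabp5 (0.776), Otub2 (0.770), Acsl5 (0.729) and Sult4a1 (0.719). Those most like the mean of standardized Fasn, Acaca, Acly and Elovl6 were Pklr (0.840), Pgd (0.796), Slc2a5 (0.792), Odad4 (0.752) and Tkfc (0.713). The points share treatments, times and array sets, and all these coefficients are descriptions over 96 livers with no test.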

How the data were processed

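Liver, heart and bone marrow RNA of 96 rats was hybridised to 288 one-colour arrays. The deposited values are log2 RMA signals for 31099 probe sets, which the authors obtained by background correction, quantile normalization and median polish of all arrays; RMA draws large changes together, and the number of arrays limits precision. Of the probe sets, 20832 had 1 gene symbol in the platform annotation, 436 had several and were not used, and 9831 were not listed. The probe set with the highest mean in a tissue stood for its gene (14218 genes).

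In each tissue limma 3.58.1 (R 4.3.3) fitted 24 group means and 3 centred array-set terms, and p-values were adjusted by the Benjamini-Hochberg method over all genes of a comparison (threshold 0.05). Changes are given with moderated standard errors. Sorafenib minus sunitinib and the tests of differences between times, and of the oral vehicle between agents or tissues, were added after the values were seen, and the oral vehicle comparison was put first on its values. Tissues were compared by differences within a rat; the pairing comes from the animal, and residuals of liver and heart had a median correlation of 0.127 within a rat and -0.0428 between rats of a group (liver and bone marrow, 0.104 and -0.0328). The fits were tested on simulated data.

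The members and the gene lists were chosen with earlier results of these data known. All 10 members are named throughout, up to 4 called genes of a list by smallest adjusted p, and the 5 genes most like Pnpla3 or the Fasn group by correlation. Separate rats are biological replicates.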

Additional observations from a re-analysis of the deposited data

Results flagged for a closer look

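In 2 of 45 groups of 4 rats, 1 rat stood far from the other 3; chance alone gives such a distance in about 1 in 20 groups. Elovl6 was at 9.86 in the liver of rat 1M10 (TEM_vehicle + sterile water, 6 h), above the rest of its group, and Acaca was at 10.54 in the liver of rat 7M76 (TEM_vehicle + Sunitinib, 6 h), below the rest of its group.

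In liver, the change with the oral vehicle at 6 h differed from the mean of 1 and 24 h by 1.12 for Fasn, 0.71 for Acaca, 0.74 for Acly and 1.63 for Elovl6, and sorafenib minus sunitinib differed in the same way by 1.39 for Fasn, 0.88 for Acaca and 0.86 for Acly.

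Within rats at 6 h, the change with the oral vehicle was larger in liver than in heart by 2.57 for Pnpla3, 1.44 for Me1 and 1.46 for Elovl6, and larger than in bone marrow by 2.47 for Pnpla3, 1.05 for Fasn, 0.75 for Acaca, 1.13 for Acly and 1.60 for Elovl6. Sorafenib minus sunitinib was larger in liver than in heart by 1.50 for Fasn, 0.89 for Acaca and 1.00 for Acly, and larger than in bone marrow by 1.49, 0.81 and 0.84.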

How the results depend on the processing

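Counts are of tests of members passed. In liver the oral vehicle was 5 with genes of a mean log2 signal of at least 6 (the filter), repeated quantile normalization, no array-set terms and without rat 7M78, 6 without rat 4M48, 7 with the mean over probe sets, 5 to 6 over rats left out, 4 in the rats given oral drugs, 3 after TEM_vehicle only and 0 after temsirolimus only. Temsirolimus with an oral drug in liver (1) was 3 after repeated quantile normalization, 2 without rat 7M78, 0 with sunitinib only, 0 with sorafenib only and 0 to 2 over rats left out (2 without rat 6M65, 8M90, 7M83, 7M76, 7M77, 5M54 or 7M78); time was 0 to 1 and sunitinib alone 0 to 2. In heart temsirolimus alone (1) was 0 under repeated quantile normalization, no array-set terms, the mean over probe sets, the adipocyte covariate and F68/PG/PEG400 only, and 0 to 1 over rats left out. Sunitinib alone in heart (1) was 0 under repeated quantile normalization, no array-set terms and the mean over probe sets, where Scd2 reversed to 0.0098, and 0 to 1 over rats left out, as was sorafenib alone (1 without rat 8M86); temsirolimus with sorafenib only was 1. In bone marrow the count was 0 in each comparison. Scd2 over time is left out here, since it was chosen against the same 24 h controls. Without rat 4M45 the counts were 2 for temsirolimus alone, 3 with an oral drug and 1 for sunitinib, and Me1 and Elovl6 passed for time. Temsirolimus with F68/PG/PEG400 only gave 3 and the oral vehicle after temsirolimus only 3, both in comparisons that hold that array. Over rats left out, temsirolimus alone (above 0 without rat 4M39, 4M40, 4M45 or 4M46) and the oral vehicle (without 4M39, 4M40 or 4M46) each ran from 0 to 2. The bone marrow counts for time over rats left out hold Scd2 and are not given. Of the tissue differences, liver minus bone marrow (0) was 2 after repeated quantile normalization and 0 to 1 over rats left out. Without the replicate block, that is with the tissues of a rat taken as independent, the count of members was 0 against each tissue, as with it. The other counts given were 0 with any rat left out. The causes of these moves were not tested.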
